A study of Mus musculus with 8 samples.

Results

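The respiratory chain subunit genes examined here are the nuclear genes of the mitochondrial complexes that carry out oxidative phosphorylation. They were taken by symbol: protein-coding autosomal genes of build mm10 that begin with Nduf, Uqcr, Atp5, Cox4, Cox5, Cox6, Cox7 or Cox8, together with Sdha, Sdhb, Sdhc and Sdhd. The symbols matched 96 genes, 3 of which lie on the X chromosome, and 93 of the 20661 protein-coding autosomal genes remained. The symbol rule also takes 8 assembly factors of complex I (Ndufaf genes), which belong to no mature complex and are given apart. CHD4 is the ATP-dependent remodelling enzyme of the NuRD complex. TBX5, of the T-box family, is a transcription factor needed for the gene programme of atrial muscle. Binding of CHD4 was measured by ChIP-seq in right and left atria of mice, with the cell type given as mixed, in 2 libraries titled TBX5 KO and 2 titled control. All mice carried TBX5 flox/flox alleles and were injected with an AAV9 vector on postnatal day 2. The vector was AAV9:Nppa-Cre for deletion of the floxed gene and AAV9:Nppa-EGFP for the controls, so that Cre came from regulatory sequence of Nppa, a gene of atrial cardiomyocytes, which directed Cre to these cells among those of the atria. The sources used here give neither the age at collection nor whether replicates were separate animals or pools, so the spread between replicates may be technical.

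Groups were taken from the titles and library names. The genotype and treatment labels contradict them, giving each library the opposite group, and the protocol text has CHD4, not TBX5, as the gene deleted. Peak lists of CHD4 do not measure deletion of Tbx5, so the labels could not be checked against the targeted gene, and all directions given here follow the titles. The 4 lists held 61173 and 69557 peaks in TBX5 KO and 99924 and 91520 peaks in control. Peaks that overlapped by at least 1 bp were merged into sites, and a site belonged to a gene where it lay in the gene body or within 1 kb of a gene end. All 7 atrial cardiomyocyte markers had a site, with 10 and 12 sites in the TBX5 KO libraries against 24 and 23 in the control libraries. All 5 fibroblast and all 5 endothelial markers had one too, with 14 and 15 and with 36 and 40 sites in TBX5 KO, against 26 and 25 and 65 and 64 in control. Markers of other cell types had sites as well. Sites numbered 4 and 4 against 7 and 6 for smooth muscle, and 4 and 4 against 6 and 4 for macrophages. They numbered 3 and 2 against 10 and 10 for neurons, and 2 and 2 against 3 and 3 for liver, TBX5 KO first. Over all genes there were 38885 and 45071 sites in TBX5 KO against 70491 and 62766 in control, and 28.7% of genes had none. A CHD4 site is not a measure of expression, and fewer cells of a type in the tissue cannot be told apart from less CHD4 per cell.

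Electrons from NADH enter the chain at complex I and those from succinate at complex II. They pass through complex III to complex IV, where oxygen is reduced, and the proton gradient built on the way drives ATP synthesis by complex V. Most subunits are encoded in the nucleus, and heart muscle, which works by steady oxidative metabolism, holds dense mitochondria and expresses several muscle isoforms of complex IV subunits. The promoters of these genes are known as targets of NRF1, ETS-family factors such as GABPA, YY1, Sp1 and the oestrogen-related receptors (ERR).

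Of the 93 genes, 75 had an entry in the RefSeq promoter table (GRCm38.p6, the assembly of mm10), and 18 were matched by symbol only to gene positions. The 6 promoters printed next show the range of what CHD4 peaks lay over. The Atp5g genes encode the same c subunit of the ATP synthase rotor and their sites had unlike heights. Cox7a1 and Cox8b are muscle isoforms of complex IV, and Ndufs8 had the strongest site of complex I. Each sequence runs 5′ to 3′ on the strand of its gene from 250 bases before to 50 bases after the annotated start, at chr11:96075582-96075881, chr15:102670998-102671297, chr2:73911277-73911576, chr7:140900397-140900696 and chr19:3912725-3913024 on the minus strand and chr7:30183921-30184220 on the plus strand. Capitals mark matches on either strand to GCGCATGCG or GCGCNTGCG (NRF1), CCGGAAG (ETS), AAGATGGC (YY1), GGGCGG (Sp1), AAGGTCA or TCAAGGTCA (ERR), GGTGTGA (T-box), TATAAA and CCAAT.
Atp5g1: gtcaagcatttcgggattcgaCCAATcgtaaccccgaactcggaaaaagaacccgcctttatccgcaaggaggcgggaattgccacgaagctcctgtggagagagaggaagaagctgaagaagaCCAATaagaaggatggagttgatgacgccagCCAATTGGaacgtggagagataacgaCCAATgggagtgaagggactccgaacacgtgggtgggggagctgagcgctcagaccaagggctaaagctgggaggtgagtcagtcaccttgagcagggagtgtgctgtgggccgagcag
Atp5g2: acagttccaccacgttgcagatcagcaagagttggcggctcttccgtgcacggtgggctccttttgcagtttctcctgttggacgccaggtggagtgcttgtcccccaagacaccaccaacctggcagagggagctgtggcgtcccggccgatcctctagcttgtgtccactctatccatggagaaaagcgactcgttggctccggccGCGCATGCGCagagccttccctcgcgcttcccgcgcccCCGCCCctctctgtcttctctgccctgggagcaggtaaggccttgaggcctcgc
Atp5g3: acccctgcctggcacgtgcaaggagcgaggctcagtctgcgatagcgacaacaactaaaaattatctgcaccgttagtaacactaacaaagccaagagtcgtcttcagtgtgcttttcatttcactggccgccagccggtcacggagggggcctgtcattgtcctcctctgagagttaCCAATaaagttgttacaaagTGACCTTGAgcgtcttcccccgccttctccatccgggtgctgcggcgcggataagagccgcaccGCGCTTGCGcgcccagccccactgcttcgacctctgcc
Cox7a1: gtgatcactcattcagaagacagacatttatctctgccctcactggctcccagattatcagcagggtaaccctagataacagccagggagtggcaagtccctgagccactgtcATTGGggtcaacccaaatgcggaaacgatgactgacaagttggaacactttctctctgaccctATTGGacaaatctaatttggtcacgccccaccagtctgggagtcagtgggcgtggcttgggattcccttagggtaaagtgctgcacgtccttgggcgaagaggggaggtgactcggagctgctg
Cox8b: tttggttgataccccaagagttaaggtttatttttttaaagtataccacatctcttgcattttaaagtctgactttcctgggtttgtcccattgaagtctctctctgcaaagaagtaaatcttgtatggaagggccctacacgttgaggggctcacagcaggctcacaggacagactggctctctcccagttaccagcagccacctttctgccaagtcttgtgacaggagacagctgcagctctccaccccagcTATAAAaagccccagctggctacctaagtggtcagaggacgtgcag
Ndufs8: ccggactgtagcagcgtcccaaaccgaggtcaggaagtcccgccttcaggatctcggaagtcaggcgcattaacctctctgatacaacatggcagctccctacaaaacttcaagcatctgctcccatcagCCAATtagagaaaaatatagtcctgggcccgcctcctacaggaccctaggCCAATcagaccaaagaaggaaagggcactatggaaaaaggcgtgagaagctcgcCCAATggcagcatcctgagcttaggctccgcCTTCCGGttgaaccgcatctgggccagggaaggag

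The Atp5g1 promoter held 5 matches to CCAAT, one of them on the opposite strand, and no other of these motifs. The Atp5g2 promoter held GCGCATGCG on both strands, which overlap since the extended motif reads the same in both directions, and 1 Sp1 match. The Atp5g3 promoter held a GCGCNTGCG match 13 bases after the start, 1 CCAAT match and the long ERR motif, which contains the short one. The Cox8b promoter held a TATAAA match after the annotated start, with its first base at position 5 counted from the start. Cox8b had a promoter with only 2 CpG dinucleotides and 48.3% G and C, whereas Atp5g3 had 21 CpG dinucleotides and 57% G and C. Cox7a1 fell between these with 7 CpG dinucleotides and 53% G and C.

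Over the 80 promoter entries of the 75 genes, the median was 58.5% G and C and 20 CpG dinucleotides, against 57% and 14 over 20084 entries of protein-coding autosomal genes. GCGCNTGCG, which includes every match of GCGCATGCG, was found in 33.8% of the entries against 8.79% of all, and GCGCATGCG in 12.5% against 2.38%. The YY1 motif was found in 13.8% against 3.06%, and the ETS motif in 23.8% against 11.9%. In promoters of mitochondrial ribosomal protein genes GCGCNTGCG was found in 24%, the YY1 motif in 16% and the ETS motif in 34.7%. In those of cytosolic ribosomal protein genes the shares were 12.6%, 9.2% and 31.0%. AAGGTCA was found in 10% against 4.03%, and TCAAGGTCA in 2 promoters, those of Atp5g3 and Sdhd. Sp1 matches were found in 43.8% against 47.0% and CCAAT matches in 41.2% against 38.1%. TATAAA was found in 11.25% against 12.7%. GGTGTGA was in none of the 80 windows and in 3.67% of all, which says only that these letters are not in these windows. Control heights and height ratios of genes with and without the NRF1 motif GCGCNTGCG had medians of 9.42 and 11.4 times background and of 0.581 and 0.553, as a description. The order was not the same for other motifs. Ratios with and without GCGCATGCG were 0.531 and 0.557. With and without the ETS motif the heights were 12.6 and 10.4 and the ratios 0.553 and 0.555. With and without AAGGTCA they were 9.59 and 10.9, and 0.637 and 0.554.

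CHD4 sites were found at 89 of the 93 genes, and 88 of them, 94.6%, had a site called in all 4 libraries, against 62.8% of all protein-coding autosomal genes. The 4 genes without any site were Ndufb4b and Ndufb4c, both named as further copies of a complex I subunit gene, and Cox7b2 and Cox8c, isoforms of complex IV subunits known from testis. No site was found at 28.7% of all genes. Cox8b was the only gene with a site but none in all 4 libraries. Among the 75 genes with a promoter entry, sites within 1 kb of an annotated start, called start sites, were counted. Start sites with a peak were found at 73 and 72 genes in TBX5 KO and at 73 and 73 genes in control. Over all genes with an entry, 59.0% and 60.5% had such a site in TBX5 KO, and 62.3% and 60.8% had one in control.

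At the strongest site of each gene, the summit lay close to the start in all libraries. Its median position relative to the start, where negative is before it, was −56 and −72 bp in the TBX5 KO libraries and −60.5 and −59 bp in the control libraries. Summits fell within 500 bp of a start for 67 of 71 and 66 of 71 genes in TBX5 KO, and for 67 of 72 genes in each control library. The strongest site lay at a gene end for 82 of 88 genes, 93.2%, against 77.9% of all genes with a strongest site. It also covered the end of another protein-coding gene for 46 of the 88, 52.3%, against 25.8% of all genes. Where it did, CHD4 height cannot be assigned to 1 of the genes. The median ratio of TBX5 KO to control was 0.562 at those 46 sites and 0.557 at the 40 others called in all 4 libraries. Shared strongest sites among the genes described below include those of Ndufs8, Ndufa13, Ndufb1, Sdha, Sdhc, Sdhd, Uqcrq and Uqcrh. Those of Cox4i1, Cox4i2, Ndufa4, Cox6a2, Cox6b2, Cox7a1, Atp5pb and Atp5md were shared as well.

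**Figure D1:**
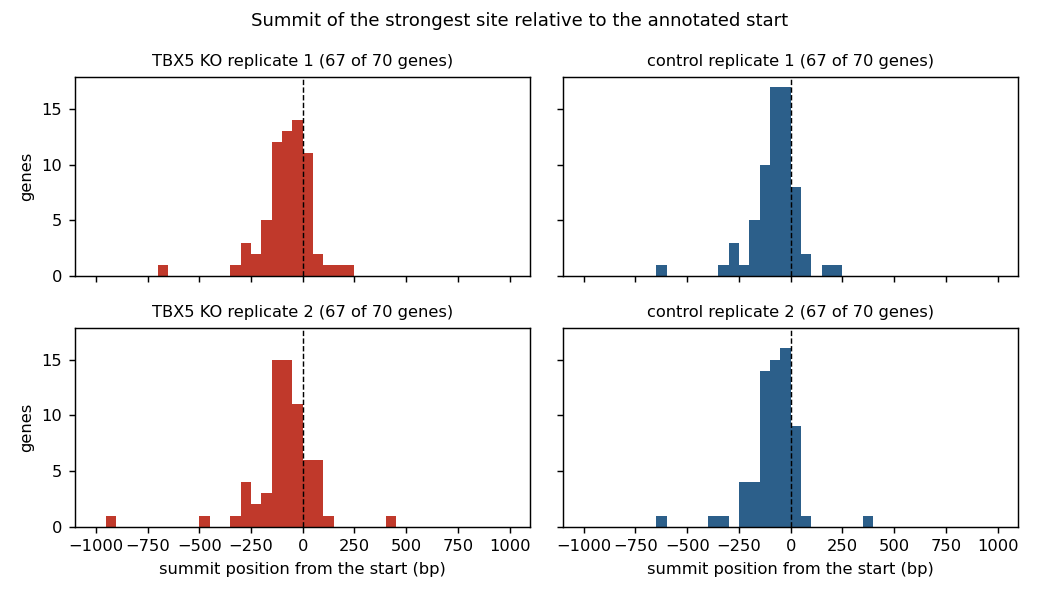
Positions of CHD4 summits of the strongest site relative to the annotated start (x axis, bp, negative before the start) as numbers of genes in bins of 50 bp (y axis), for the 70 genes with a promoter entry and a strongest site called in all 4 libraries, with TBX5 KO libraries on the left and control libraries on the right. In every library 67 of the 70 summits fell within 1000 bp of the start, most of them just before it.

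The height of CHD4 at these genes was lower in both TBX5 KO libraries than in both control libraries at nearly every promoter. Height is given as the pileup of a peak in reads over the genome background of its library, recovered from the authors' fold and p, and called times background below. Over the 100 sites called and measurable in all 4 libraries, the median height was 5.71 and 5.93 times background in TBX5 KO against 10.1 and 9.25 in control. The TBX5 KO medians lay below both control medians. The median per-site ratio of TBX5 KO to control was 0.571, and the mean of the library medians was 5.82 ± 0.156 in TBX5 KO against 9.67 ± 0.593 in control (SD, n = 2 each). The exact permutation test over libraries, two-sided, had p = 0.333, the smallest that this test can give with 2 against 2 libraries. Peaks were also narrower, with median widths of 945 and 1029 bp in TBX5 KO against 1467 and 1431 bp in control. So they were at all gene sites called in 4 libraries, with 806 and 940 bp in TBX5 KO against 1345 and 1196 bp in control.

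Both TBX5 KO values lay under both control values at 94 of the 100 sites, 94%, against 89.3% of all gene sites in 4 libraries, and at 87 of 93 gene-end sites against 93.1% of all gene-end sites. No site of these genes had both TBX5 KO values above both control values. The lower height in TBX5 KO was thus shared with most gene sites in these libraries. Median height over all gene-end sites was 5.89 and 6.04 times background in TBX5 KO against 10.4 and 9.15 in control, close to 5.80 and 6.11 against 10.1 and 9.34 at the gene ends of the respiratory chain genes. The median ratio was 0.561 at their gene ends and 0.607 at all gene ends.

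The ratio varied with the control height, both among these genes and among all genes. In the middle range of control height, from 7.95 to 12.9 times background, the median ratio was 0.570 at 46 gene-end sites of respiratory chain genes and 0.603 at 4620 gene-end sites of all genes. Above it the medians were 0.538 and 0.533, and below it 0.700 and 0.716. The control value enters both the ratio and the height, so they are not independent measures.

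**Figure D2:**
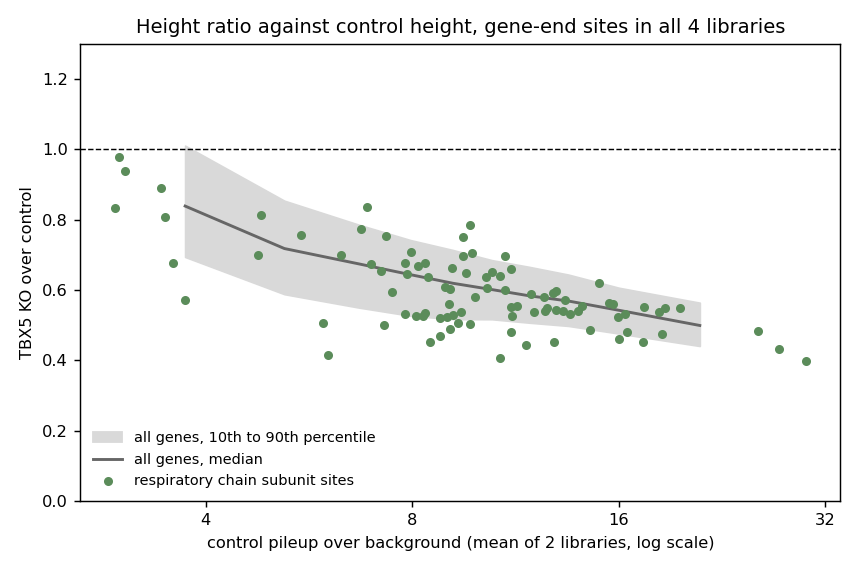
Ratio of TBX5 KO to control height (y axis) against control height in times background (x axis, log scale) for the 93 gene-end sites of respiratory chain genes called in all 4 libraries (green points), with the median (line) and the 10th to 90th percentile (band) of all gene-end sites in 10 groups of like control height. All 93 points lie under a ratio of 1, as does the median of all genes over the whole range.

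By complex, the strongest sites gave alike medians of the ratio of TBX5 KO to control: 0.558 over 34 genes of complex I, 0.570 over 4 of complex II, 0.612 over 8 of complex III, 0.560 over 15 of complex IV and 0.568 over 16 of complex V. Over the 8 complex I assembly factors it was 0.569. Over all 86 strongest sites called in all 4 libraries the median was 0.560, with a range of 0.398 to 0.891, against 0.593 over 12434 strongest sites of all genes. Both TBX5 KO values lay under both control values for 84 of the 86 genes, 97.7%, against 95.2% of all genes. The exceptions were Uqcrc2 and Cox6b2. Genes alike in role gave close medians: 0.599 over 76 mitochondrial ribosomal protein genes, 0.581 over 86 cytosolic ribosomal protein genes and 0.581 over 42 partners and assembly factors outside the symbol rule, such as Cycs, Cyc1 and Surf1. Over 15 genes of the TCA cycle, which feeds the chain with electrons, the median was 0.553.

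**Figure D3:**
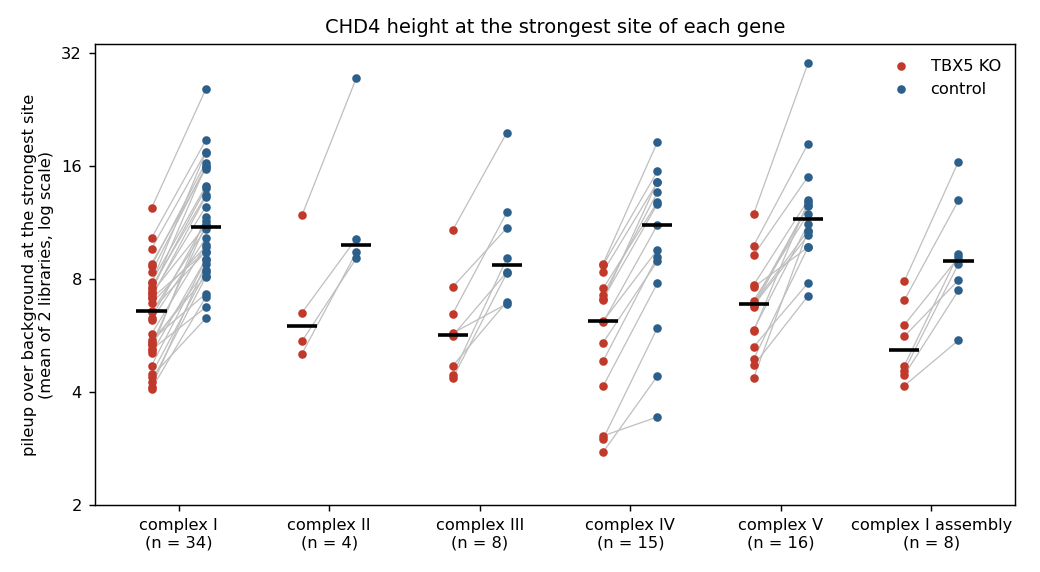
Height of CHD4 at the strongest site of each gene (y axis, times background, mean of 2 libraries, log scale) in TBX5 KO (red, left) and control (blue, right), by complex; grey lines join the values of 1 gene and black bars mark medians. Medians were 6.56 in TBX5 KO against 11.01 in control for complex I and 6.85 against 11.6 for complex V, and every line rises towards control.

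In complex I, the highest control fold was at Ndufs8, Ndufa13 and Ndufb7. Ndufs8, a core iron-sulfur subunit, had heights of 12.6 and 12.1 times background in TBX5 KO and 26.7 and 24.4 in control, from pileups of 135 and 162 reads against 270 and 251. Its TBX5 KO values were the highest of complex I and still lay below both control values. The site also covered an end of Aldh3b1. Ndufa13, an accessory subunit of the membrane arm, had 7.67 and 7.98 in TBX5 KO against 16.3 and 18.4 in control, a ratio of 0.451. Its summits lay at −1280 and −1252 bp from the start in TBX5 KO against −1238 and −1262 bp in control. That site also covered an end of Tssk6. Ndufb7, an accessory subunit also in the membrane arm, had 10.4 and 8.87 in TBX5 KO against 18.5 and 16.4 in control. For both genes the groups did not overlap.

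Ndufb8, the complex I gene with the lowest control fold, had 5.52 and 4.62 times background in TBX5 KO against 10.5 and 7.59 in control. The groups were apart here as well, although the control replicates differed. Ndufb4, an accessory subunit gene, had 4.96 and 5.44 in TBX5 KO against 11.9 and 11.6 in control and one of the lowest ratios, 0.444. At the other end, Ndufb1 had 5.24 and 5.15 in TBX5 KO against 7.42 and 6.03 in control, a ratio of 0.772. The assembly factor gene Ndufaf1 had 3.56 and 4.77 in TBX5 KO against 6.03 and 4.96 in control, a ratio of 0.757, with 1 TBX5 KO value just under the lower control value.

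In complex II, Sdhb, the iron-sulfur subunit of succinate dehydrogenase, had heights of 11.6 and 12.1 times background in TBX5 KO against 29.7 and 25.1 in control, a ratio of 0.432. It had the highest authors' fold among the strongest sites of these genes, with a mean of 17.2 in control. The flavoprotein gene Sdha had 5.43 and 5.52 in TBX5 KO against 9.99 and 8.18 in control. The genes of the membrane anchors followed: Sdhc had 5.80 and 7.23 in TBX5 KO against 9.79 and 10.7 in control. Sdhd had the lowest control fold of the complex, with 5.15 and 5.0 in TBX5 KO against 9.59 and 9.25 in control. In all 4 genes both TBX5 KO values lay below both control values, and Sdhb stood far above the other three in both groups.

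In complex III, Uqcrq, a small accessory subunit, had 11.9 and 9.69 times background in TBX5 KO against 20.4 and 18.9 in control, at a site that also covered an end of Gdf9. Uqcrfs1, the Rieske iron-sulfur protein, had 7.11 and 5.82 in TBX5 KO against 13.8 and 10.2 in control. Uqcrh, the hinge protein, had 7.86 and 7.38 in TBX5 KO against 10.6 and 11.3 in control. The groups were apart at these genes. Uqcrc2, a core protein of the complex, had 5.15 and 6.34 in TBX5 KO against 7.81 and 5.94 in control, so that the second TBX5 KO library lay above the second control library, and its ratio of 0.835 was one of the highest.

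In complex IV, the highest control fold was at Cox5b, Cox4i1 and Ndufa4. Cox5b had 8.79 and 8.80 times background in TBX5 KO against 20.1 and 16.9 in control, a ratio of 0.475. Ndufa4, first described in complex I and now counted with complex IV, had 6.64 and 7.46 in TBX5 KO against 15.0 and 14.02 in control. The groups did not overlap at either gene.

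Complex IV also holds the paired isoforms, in which one form is broad and the other enriched in particular tissues. Cox4i1, the broad form, had 8.79 and 8.65 times background in TBX5 KO against 18.3 and 12.7 in control. Cox4i2, known as the lung and hypoxia form, had its strongest site in the gene body, with 3.09 and 2.46 in TBX5 KO against 4.45 and 4.38 in control. The broad form was higher in every library.

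Cox6a1, the broad form of this pair, had 4.58 and 6.26 times background in TBX5 KO against 8.80 and 9.05 in control. Cox6a2, the heart and skeletal muscle form, had 3.18 and 2.83 in TBX5 KO against 5.73 and 6.13 in control. The muscle form was the lower one in every library. Cox6b1 had 6.27 and 6.11 in TBX5 KO against 9.59 and 9.54 in control. Cox6b2, a testis form, had 2.99 and 3.13 in TBX5 KO against 3.96 and 2.92 in control, with overlapping groups and the highest ratio of all, 0.891.

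Cox7a1, the heart and muscle form, had 6.18 and 6.11 times background in TBX5 KO against 11.9 and 10.4 in control. Cox7a2, the broad form, had 6.64 and 7.53 in TBX5 KO against 13.9 and 11.4 in control. Cox7a2l, a related protein that joins complexes III and IV into supercomplexes, had 8.33 and 6.79 in TBX5 KO against 13.2 and 12.4 in control. In this trio the control ranges of neighbours in the order overlapped, and all 3 genes were lower in TBX5 KO.

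Cox8a, the broad form, had 7.48 and 7.01 times background in TBX5 KO against 15.1 and 12.1 in control. Cox8b, the heart and muscle form in mice, had a peak of 2.62 in 1 TBX5 KO library and none in the other, against 4.25 and 4.57 in control, from pileups of 28 reads in TBX5 KO against 43 and 47 in control. Its CpG-poor promoter, with a TATAAA match after the annotated start, is printed above. Among the paired forms, the muscle forms Cox6a2 and Cox8b had sites of less than 7 times background in both groups, and Cox7a1 had a higher one, which lay slightly under that of Cox7a2 in every library. Ndufa4l2, a hypoxia-induced relative of Ndufa4, had 5.15 and 5.22 in TBX5 KO against 8.31 and 6.23 in control at its strongest site, in the gene body.

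**Figure D4:**
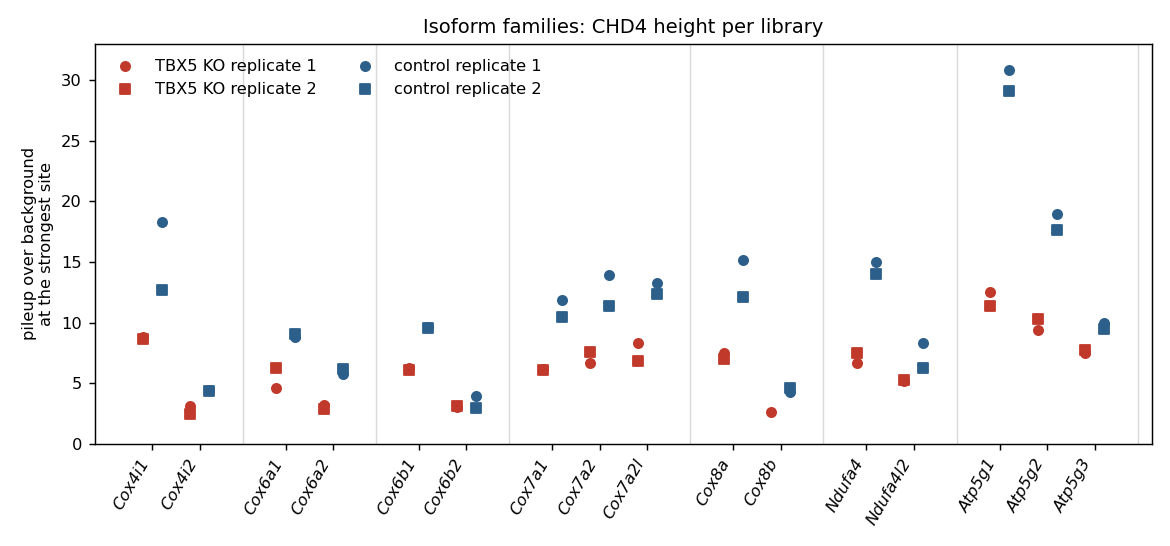
Height of CHD4 at the strongest site (y axis, times background) of the isoform families in each library, with TBX5 KO in red to the left and control in blue to the right of each gene; circles are replicate 1 and squares replicate 2. Cox8b has a point for 1 TBX5 KO library only, Cox8c had no site, and Atp5g1 stands highest, at 30.8 and 29.1 in control.

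In complex V, Atp5g1 had the highest control height of all, with 12.5 and 11.3 times background in TBX5 KO against 30.8 and 29.1 in control, from pileups of 134 and 152 reads against 312 and 299. Its ratio of 0.398 was the lowest among the 86 genes, and its summit lay at −188 and −206 bp from the start in TBX5 KO against −251 and −234 bp in control. Atp5g2, which encodes the same mature c subunit, had 9.36 and 10.3 in TBX5 KO against 19.0 and 17.6 in control, a ratio of 0.537. Atp5g3 had 7.48 and 7.76 in TBX5 KO against 9.99 and 9.44 in control, a ratio of 0.784. The order of the 3 genes in control, Atp5g1 over Atp5g2 over Atp5g3, had gaps larger than the replicate differences. In TBX5 KO the order was the same with smaller gaps.

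Atp5l, the g subunit of the membrane part, had 5.61 and 6.04 times background in TBX5 KO against 13.2 and 12.5 in control, a ratio of 0.453. Atp5pb, the b subunit of the stalk, had 4.49 and 4.25 in TBX5 KO against 11.4 and 10.1 in control, and its ratio of 0.407 came next after that of Atp5g1. Atp5md, a small subunit known as DAPIT, had the lowest control fold of complex V, with 5.05 and 5.52 in TBX5 KO against 8.21 and 7.40 in control. The groups did not overlap at these genes. Atp5d lay inside 1 merged site of 40897 bp whose summits were not all within 1 kb of the gene, so no height is given for it.

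Each TBX5 KO library had fewer called sites than either control library, and the gap was widest in gene bodies. In these counts a site was called in a library with a peak overlapping the gene or the 1 kb around its ends. Of 242 sites at these genes, 110 and 123 were called in TBX5 KO against 198 and 189 in control, with means of 116.5 ± 9.19 and 193.5 ± 6.36 (SD, n = 2 each; two-sided exact permutation p = 0.333). The ratio of 0.602 was near the 0.630 over all genes. At gene ends 100 and 107 sites were called in TBX5 KO against 135 and 136 in control. In gene bodies 10 and 16 were called in TBX5 KO against 63 and 53 in control, a ratio of 0.224, where gene bodies of all genes gave 0.549. Body sites of the 15 TCA cycle genes numbered 7 and 10 in TBX5 KO against 43 and 38 in control, and those of mitochondrial ribosomal protein genes 17 and 26 in TBX5 KO against 67 and 52 in control. In lists of equal length the difference between the group means over all places, TBX5 KO minus control, shrank to −22.5 sites, against −77 in the lists as deposited, and it was −37 with −log10 q of at least 5. The number of genes with a peak was 89 and 88 in TBX5 KO against 89 and 89 in control, and the gene without one in the second TBX5 KO library was Cox8b.

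For the patterns, a list held a site where it had a peak anywhere in the merged site, also beyond 1 kb of the gene. These numbers can therefore exceed the counts of called sites above. Both control lists held 153 sites of these genes. Both TBX5 KO lists held 112 of them, 1 TBX5 KO list held a further 10, and neither held the remaining 31. These 31 control-only sites made up 20.3% (Wilson 95% interval 14.7 to 27.3%, counting error only), near the 23.1% over all gene sites. No site was TBX5 KO-only, out of 112 called in both TBX5 KO libraries, against 1.58% over all gene sites. There was likewise none among 105 at gene ends, against 0.491%, and none among 7 in gene bodies, against 2.44%. At such shares so few body sites would hardly hold one. A further 5 sites were called in 1 TBX5 KO library alone, 76 in 1 control library alone and 8 in 1 library of each group. With control replicate 1 left out, 74 sites were called in the remaining control library and neither TBX5 KO library, and with control replicate 2 left out 89 were, since a pattern over fewer libraries is met more often.

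Patterns differed by the place of a site in its gene. Of 75 start sites (within 1 kb of an annotated start) that both control lists held, 73 were found in all 4 lists. Only 1 was control-only, a share of 1.33% against 2.90% over all genes. At the other gene ends 11 of 28 sites, 39.3%, were control-only, against 18.3% over all genes, and in gene bodies 15 of 21, 71.4%, against 32.02%. With all genes of the module, including those without a promoter entry, 14 of 124 gene-end sites, 11.3%, were control-only against 6.65%, and 17 of 29 body sites, 58.6% (Wilson 95% interval 40.7 to 74.5%), against 30.7%. Sites in one gene or near each other share their surroundings, so these intervals cover counting error only and are not a test of the genes against others. The single control-only start site was at Atp5pb and lay inside the gene without reaching the start itself. It had 3.07 and 3.11 times background in control, beside the much higher site of the same gene given above. The other start site held by both control lists and missing from a TBX5 KO library was that of Cox8b. Additional start sites of Atp5j2, Ndufa10 and Ndufb7 were called in 1 control library alone. Each of these genes also had a start site called in all 4 libraries.

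**Figure D5:**
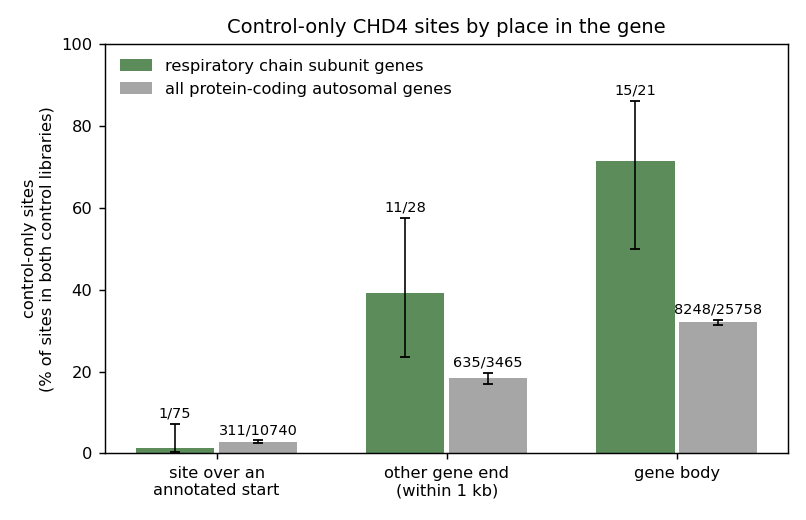
Control-only sites as a percentage of the sites called in both control libraries (y axis), with counts above the bars and Wilson 95% intervals as error bars. Sites are within 1 kb of annotated starts (labelled as over a start), at other gene ends or in gene bodies. Respiratory chain subunit genes are green and all protein-coding autosomal genes grey. Shares of respiratory chain genes were 1.33%, 39.3% and 71.4%, against 2.90%, 18.3% and 32.02% over all genes.

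Control-only sites were low in control. Their control height had a median of 3.21 times background and a range of 2.45 to 5.14, against a median of 8.12 over sites in both control libraries. A control height needs summits of both control libraries in the gene plus 1 kb. Sites without it, such as a control-only site of Atp5o, are left out here and in the bands below. At gene ends, 7 of 10 sites under 3 times background in control were control-only, against 54.2% over all genes. Of those from 3 to 4 times background 6 of 13 were, against 23.6%. None of the 6 gene-end sites of 4 to 6 times background was control-only, against 4.15% over all genes. None of the 82 higher ones was, against 0.0988%. Among body sites of 3 to 4 times background in control, 8 of 10 were control-only, against 41.0% over all genes, and among those of 4 to 6 times background 6 of 10 were, against 16.9%. These bands hold few sites. At least 1 control-only site was present at 24 genes, 25.8%, against 23.9% of all genes, and 6 of the 24 had 2 or more.

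Ndufa10, an accessory subunit of complex I, had the most sites, 9, and 3 of them were control-only, all in the gene body. At chr1:92443647-92444223 there was no peak in TBX5 KO and a height of 4.45 and 5.84 times background in control. The sites at chr1:92452881-92454144 and chr1:92466524-92467157 also had no peak in TBX5 KO, against 4.45 and 4.09 and against 4.65 and 3.70 in control. A further body site, the strongest with a summit in the gene, had 2.76 in the second TBX5 KO library and no peak in the first, against 7.22 and 8.86 in control. The site at the gene end at chr1:92472867-92474558 was called throughout, with 4.30 and 5.82 in TBX5 KO against 7.91 and 7.79 in control. Thus the sites of 1 gene took different patterns, and the gene as a whole kept a peak in every library.

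Other control-only sites of high control fold included several of complex I. The core subunit gene Ndufs7 had a body site of 3.96 and 4.48 times background in control. Ndufab1, the mitochondrial acyl carrier protein, had a body site of 4.45 and 2.63 in control. Neither had a peak in TBX5 KO. At gene ends, Ndufs4 had 3.66 and 3.60, Ndufa13 had 3.86 and 2.82, and Ndufa6 had 2.67 and 3.60 in control. Those sites too had no peak in TBX5 KO. The strongest sites of Ndufs7 and Ndufs4 were called in all libraries. That of Ndufs7 had 8.23 and 7.46 in TBX5 KO against 14.4 and 13.8 in control, and that of Ndufs4 had 4.87 and 4.55 in TBX5 KO against 9.29 and 8.66 in control.

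In complex V, Atp5j, coupling factor 6, had a control-only body site of 4.45 and 3.99 times background in control. Atp5b, the catalytic beta subunit, had one of 4.75 and 3.89 in control, while its strongest site had 7.02 and 6.49 in TBX5 KO against 12.5 and 12.6 in control. In complex II, the body of Sdhb had a control-only site of 3.86 and 2.82 in control, far below the promoter site of that gene. In complex IV, Cox8a had control-only sites of 3.46 and 3.50 and of 2.77 and 3.11 in control near its ends, and Cox5a had body sites of 3.36 and 3.70 and of 3.46 and 3.31. The strongest site of Cox5a, also inside the annotated gene, had 7.58 and 9.17 in TBX5 KO against 15.1 and 13.8 in control.

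The 3 genes with the most sites differed in control-only calls. Ndufb7 and Uqcrc1 had 8 sites each and no control-only one, unlike Ndufa10 with 3 of its 9 sites. At Ndufb7, 6 of the 8 were called in 1 control library alone and 2 in all libraries. At Uqcrc1, a core protein gene of complex III, 5 were called in 1 control library alone, 1 in 1 library of each group and 2 in all libraries. Its promoter site had 4.87 and 4.03 times background in TBX5 KO against 9.20 and 8.96 in control, and the site at its other end had 3.46 and 2.39 in TBX5 KO against 2.47 and 3.50 in control, where the groups overlapped.

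Genes of related function differed in their control-only shares, which are set here beside the 23.1% over all gene sites. Mitochondrial ribosomal protein genes had 20 control-only sites among 130 in both control libraries, 15.4%. Of these, 6 were at gene ends and 14 in gene bodies, with none within 1 kb of an annotated start. The 42 partners and assembly factors outside the symbol rule had 7 control-only sites among 57 in both control libraries, 12.3%, and no TBX5 KO-only site. The 15 TCA cycle genes had 15 among 44, 34.1%, all in gene bodies, where they made up 60% of 25 sites against 30.7% over all genes. Every gene of these 3 lists had a peak in every library. Cytosolic ribosomal protein genes had 27 among 168, 16.1%, with 87 and 88 of 95 genes called in TBX5 KO against 89 and 88 in control. None of the lists in this comparison had a TBX5 KO-only site.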

How the data were processed

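CHD4 ChIP-seq was done on frozen atria with a ThruPLEX DNA-seq kit, per the labels' protocols. The analysis used 1 peak list per ChIP library, 4 in all, and no values of the inputs by themselves. The submitters' processing notes name MACS2, DiffBind and mm10, without versions. Aligner and peak-calling options: not given in the sources used here. Replicates were not pooled in the deposited lists. Among the deposited values, the fold is a ratio of pileup to local background made by the authors' peak caller. The authors' −log10 p and q come from the same caller, with a lowest −log10 q of 1.30 to 1.31. The deposited score was 10 times −log10 q in at least 99.96% of peaks. The lists give no read totals, so depth is unknown.

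Pileup and local background were computed from the fold and −log10 p under the Poisson model of the caller. The pileup came out whole within 0.02 reads for at least 99.998% of peaks. The genome background, taken as the lowest local background, was 10.7 and 13.4 reads in TBX5 KO and 10.1 and 10.3 in control, and heights are pileups over it. They are estimates. A site takes the highest peak with a summit in the gene plus 1 kb, a choice made after the data were seen. The strongest site had the highest mean authors' fold in control. A site at several genes counted at each. Gene positions and promoters came from RefSeq tables of GRCm38.p6. Merging, patterns, Wilson intervals and exact permutation tests used Python 3.11.15, pandas 2.3.3, numpy 2.4.6 and scipy 1.17.1, with figures in matplotlib 3.10.9. The scripts were tested on simulated data.

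Members and gene lists were chosen with earlier results of these data known. Values per library are given for the 12 genes with the strongest control-only sites, the 3 highest and 1 lowest genes by control fold in each complex, the isoform families, the 3 genes with the most sites, and the 5 lowest and 5 highest ratios. Genes without a site are named only. One gene that the rule takes is not reported here. Alternatives were stricter q, lists of equal length, other overlaps and windows, other measures of height, leaving out each library, same-numbered pairs and exchanged groups.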

Additional observations from a re-analysis of the deposited data

How the results depend on the processing

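The 31 control-only sites (20.3%) became 16 (13.3%) with −log10 q of at least 5, 13 (10.6%) in lists of equal length and 14 (11.3%) at gene ends only. The first 2 settings remove weak peaks and the last leaves fewer sites; further causes were not tested. TBX5 KO-only sites numbered 0, and 1 when peaks were joined by summits within 250 bp. The difference in genes with a peak, −0.5, was 0 with 2.5 kb around gene ends. With the groups exchanged, as the genotype and treatment labels state them, control-only sites numbered 0 (0%) and TBX5 KO-only sites 31, the site difference was 77, the gene difference 0.5 and the height ratio 1.75. Leaving out each library gave 35 to 89 control-only sites (22.9 to 41.8%), 0 to 5 TBX5 KO-only sites, site differences of −95 to −71, gene differences of −1 to 0 and height ratios of 0.540 to 0.607. The site difference of −77 shrank to −22.5 in lists of equal length, −37 with −log10 q of at least 5 and −32 at gene ends only. It and the height ratio kept their sign in every other alternative run; the ratio was 0.754 with the authors' fold and 0.554, added after seeing the data, with the local background subtracted.

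Same-numbered libraries share only a number in the labels. Their deviations correlated at −0.112 over 100 sites. With the replicate block the height ratio was 0.580, against 0.571 without it, and 2 pairs allow no p under 0.5. The other results cannot respond to pairing. The pattern of a site is set by its calls in the 4 libraries, however these are paired. The 31 control-only sites and the absence of TBX5 KO-only ones therefore stay as they are, with crossed pairs too. Mean differences of −77 sites and −0.5 genes are likewise the same under any pairing. These unchanged values say nothing about robustness.

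Depth is unknown, and a site without a peak is not shown to be unbound. Control-only sites were low in control, with a median of 3.21 times background. They numbered 31 in the lists as deposited, 24 with −log10 q of at least 3 and 16 with at least 5. Weaker enrichment or depth in the TBX5 KO libraries and loss of CHD4 at the site cannot be told apart. With 2 libraries a group, the exact permutation test cannot give a p under 0.333.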
